A study of Drosophila melanogaster with 2 samples.

Results

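The Rab genes of *Drosophila melanogaster* were taken as all protein-coding genes whose symbol is Rab followed by a number, or by X and a number. There were 33 of them among the 13945 protein-coding genes on chromosomes 2L, 2R, 3L, 3R, 4 and X. Another 3 symbols begin in the same way but name regulators of Rab proteins (Rab3-GEF, Rab3-GAP and Rab3GAP1), and they were not counted as members. The measurement was chromatin immunoprecipitation followed by sequencing (ChIP-seq) of the homeodomain factor Repo, a regulator of glial genes. The single group was made of whole embryos aged 0 to 24 hours, both sexes together, from a transgenic line in which Repo carries a C-terminal GFP tag. Its 2 biological replicates are numbered 1 and 3, and no other genotype, age or treatment was compared. Glia are a minority among the cell types of such embryos, and a peak does not show in which of those cells the tagged protein was bound.

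Rab proteins are small GTPases that give membranes their identity. A Rab is switched on when an exchange factor (GEF) loads it with GTP, and it then recruits effectors such as tethers and motor proteins that move, dock and fuse vesicles. A GTPase-activating protein (GAP) switches it off, and a guanine nucleotide dissociation inhibitor takes it off the membrane. Rab1, Rab2, Rab6 and Rab30 work at the endoplasmic reticulum and Golgi, Rab5, Rab7 and Rab11 at early, late and recycling endosomes, and Rab3, Rab8 and Rab27 on routes to the plasma membrane.

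The promoters of 4 Rab genes are shown first because a peak summit and the same 8-base word lay side by side in each. The word, TATCGATA, is the binding site of Dref, a factor found at promoters of many fly housekeeping genes. It is in capitals below, it reads the same on both strands, and each stretch is given 5′ to 3′ on the strand of the gene, on build dm6. The stretches are the bases within 50 bp of the summit that lie in no annotated exon. They are chr3L:19871079-19871136 (minus strand), chr2L:7032607-7032697 (minus), chr3R:23992939-23993007 (plus) and chrX:1476979-1477062 (minus).
Rab8: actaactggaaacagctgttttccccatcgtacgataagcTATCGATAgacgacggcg
Rab30: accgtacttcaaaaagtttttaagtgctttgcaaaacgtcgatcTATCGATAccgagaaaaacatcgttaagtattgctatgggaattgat
Rab7: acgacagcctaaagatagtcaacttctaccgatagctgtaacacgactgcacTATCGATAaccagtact
Rab27: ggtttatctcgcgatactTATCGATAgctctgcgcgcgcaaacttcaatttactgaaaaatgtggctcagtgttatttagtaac

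The summits of the strongest and the fourth strongest Rab peak lay inside introns, and their stretches are shown because they hold no such site. They are chr3R:21113197-21113297 (plus strand) for Rab11 and chr2L:2363904-2364004 (minus strand) for Rab5. The capitals in Rab5 mark the reverse complement of CAATTA, the word taken here for Repo, 22 bp from the summit. The stretch at Rab11 held none of the 10 words searched.
Rab11: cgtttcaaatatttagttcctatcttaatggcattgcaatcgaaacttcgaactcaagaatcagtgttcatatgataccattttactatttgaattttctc
Rab5: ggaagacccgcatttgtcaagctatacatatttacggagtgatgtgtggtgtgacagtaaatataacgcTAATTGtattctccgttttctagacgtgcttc

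An optimal peak is a peak of the list that the authors made from both replicates with a threshold on the irreproducible discovery rate (IDR). Not each was found in both replicates, since 16 of the 2697 had no peak in a replicate's own list. A gene was called bound when the summit of an optimal peak lay between 2 kb upstream of its start and its end. By this rule 10 of the 33 Rab genes (30.3%) were bound, beside 19.7% of all protein-coding genes. These were Rab1, Rab5, Rab7, Rab8, Rab11, Rab14, Rab23, Rab27, Rab30 and RabX1. Weaker peaks are entries of the authors' pooled list of peaks and background whose summit lies in no optimal peak. A further 18 Rab genes (54.5%) held weaker peaks only, beside 53.6% of all genes. The other 5 Rab genes (15.2%) held no peak, beside 26.6% of all genes. A summit within 500 bp of the gene's own start was found for 6 Rab genes (18.2%), beside 12.1%. The interval searched had a median length of 4445 bp for Rab genes and 4166 bp for all genes. With a single group and no contrast between samples, these shares were set side by side and not tested.

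**Figure D1:**
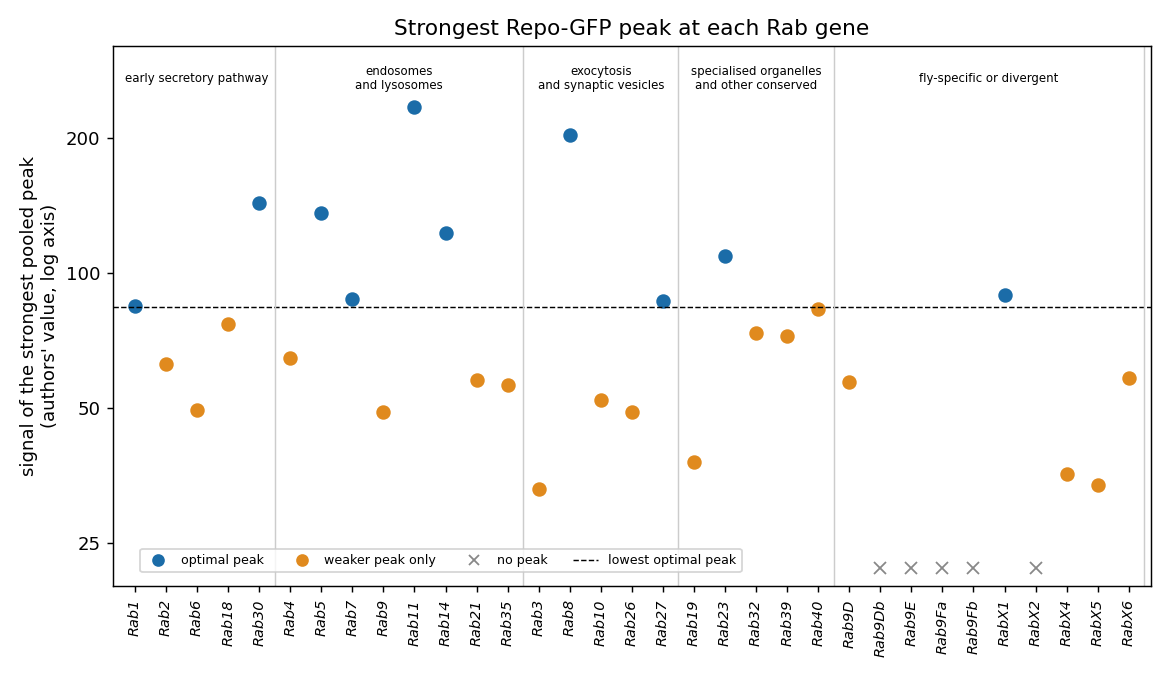
Signal of the strongest peak at each of the 33 Rab genes (vertical log axis, the authors' value with no stated unit), with genes grouped by role along the horizontal axis. The 10 bound genes run from 84.4 at Rab1 to 234 at Rab11, the weaker-only genes lie under the dashed line of the lowest optimal peak, and crosses mark the 5 genes without a peak at an arbitrary height.

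The roles of the bound members were spread over the whole traffic system. Of the Rab genes of the early secretory pathway, 2 of 5 were bound (Rab1 and Rab30), and of those of endosomes and lysosomes, 4 of 8 (Rab5, Rab7, Rab11 and Rab14). Of the genes of exocytosis and synaptic vesicles, 2 of 5 were bound (Rab8 and Rab27), and of the other conserved genes, 1 of 5 (Rab23). Together 9 of 23 conserved Rab genes (39.1%) were bound, beside 19.7% of all protein-coding genes. Each of the 23 held at least a weaker peak, while 26.6% of all genes held none. In the related lists described below, few genes lacked a peak either: 3.1% of other small GTPases, 5.3% of effectors and tethers and 6.25% of regulators. The bound shares there were 34.4%, 26.3% and 46.9%. Of the 10 fly-specific or divergent genes, 1 was bound (RabX1) and 5 held no peak. The divergent genes were also shorter, with a median length of 893 bp against 3268 bp for the conserved genes. The median interval searched was 2893 bp against 5268 bp, and it was 4166 bp for all genes. The part of these lengths in the differences was not tested.

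The 10 bound genes held 11 optimal peaks, with pooled signals between 84.4 and 234. Over all 2697 optimal peaks the signal ran from 84.0 to 1703 with a median of 123, so most Rab peaks lay in the lower part of the list. Of the 11 peaks, 4 lay above that median, 1 was among the first 500 and none among the first 100. The strongest peak of the bound Rab genes had a median signal of 116, beside 134 for all bound genes. None of the 11 summits lay in a coding exon, where only 1.11% of all optimal summits lay. Of the 11, 5 were intergenic, 3 in an intron of the Rab gene itself, 2 in an intron of a neighbour and 1 in a 5′ UTR. For these places no share over all optimal peaks is given here. Signals below are the authors' values, given for the pooled data and then for replicates 1 and 3 from each replicate's own list.

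Among the early secretory genes, Rab30 (FBgn0031882, chr2L:7030493-7032606, minus strand), which encodes a Golgi Rab, had 2 optimal peaks. The stronger, at chr2L:7032449-7032844, had a pooled signal of 143 and replicate signals of 64.1 and 79.3. It ranked 1016 in the pooled list, 1216 in replicate 1 and 984 in replicate 3. Its summit lay 41 bp upstream of the Rab30 start and 74 bp from the start of Caper, which encodes a splicing factor. The other peak, at chr2L:7033298-7033693, lay 890 bp upstream of Rab30 in an intron of Caper. Its pooled signal was 107, and it ranked 1632 and 1856 in the replicates with signals of 55.9 and 54.5.

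Rab1 (FBgn0285937, chr3R:21266029-21269060, minus strand), which acts in transport from the endoplasmic reticulum to the Golgi, had the lowest optimal peak of the family. The peak lay at chr3R:21268849-21269244 with its summit in the 5′ UTR, 13 bp downstream of the gene start. The pooled signal was 84.4, just above the lowest optimal value of 84.0. Replicate 1 gave 47.5 at rank 2286 and replicate 3 gave 37.5 at rank 3727. Rab1 was the only one of the 6 genes bound at the start without a divergent neighbour within 1000 bp; the nearest other gene start, that of AP-2sigma, was 1028 bp from the summit.

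The endosomal genes included the strongest Rab peak. Rab11 (FBgn0015790, chr3R:21111408-21116146, plus strand), the Rab of recycling endosomes, had a peak at chr3R:21113154-21113258 with a pooled signal of 234, rank 359. Replicate 1 gave 111 at rank 349 and replicate 3 gave 120 at rank 413, so both replicates placed it high. Its interval was narrower than those of all other Rab peaks. The replicate 3 summit, 17 bp downstream of the pooled summit, lay just past the end of that interval. The pooled summit lay in an intron, 1839 bp downstream of the start, and the nearest start of another gene, ppan, was 3007 bp away. At its own start Rab11 had only a weaker peak of signal 73.3, 176 bp upstream.

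Rab5 (FBgn0014010, chr2L:2359142-2365273, minus strand), which drives early endosome fusion, was also bound in an intron. Its peak at chr2L:2363756-2364151 had a pooled signal of 136, with 71.1 at rank 976 in replicate 1 and 73.2 at rank 1128 in replicate 3. The summit lay 1319 bp downstream of the gene start and 450 bp upstream of another annotated Rab5 transcript start. The replicate 3 summit lay 82 bp from the pooled summit, the largest shift among the optimal Rab peaks; in replicate 1 none of the 11 optimal summits shifted by more than 30 bp.

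Rab14 (FBgn0015791, chr2L:14355145-14358764, plus strand), which acts between the Golgi and endosomes, had a peak at chr2L:14355495-14355890 with a pooled signal of 122. The replicates gave it unequal weight, with 44.3 at rank 2662 in replicate 1 and 78.3 at rank 1002 in replicate 3. Its summit lay in an intron 548 bp downstream of the start, inside the noncoding gene lncRNA:CR44851, which overlaps it. A second, weaker peak of signal 82.8 lay in the 5′ UTR at 245 bp. That weaker peak had a signal of 60.2 at rank 1392 in replicate 1 and was not in the list of replicate 3, so the replicates placed their main signal at different points of Rab14.

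Rab7 (FBgn0015795, chr3R:23993008-23995452, plus strand), which acts in fusion of late endosomes with lysosomes, had a peak at chr3R:23992791-23993186 with a pooled signal of 87.4. Replicate 1 gave 51.0 at rank 1981, and replicate 3 gave 31.8 at rank 5213. The summit lay 19 bp upstream of Rab7 and 73 bp from the start of the divergent gene Epp. A weaker peak of signal 79.0 followed 589 bp downstream of the start.

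Of the exocytic genes, Rab8 (FBgn0262518, chr3L:19867488-19871078, minus strand), which carries vesicles from the Golgi to the plasma membrane, had the second strongest Rab peak. It lay at chr3L:19870888-19871283 with a pooled signal of 203 at rank 504, and with 106 at rank 391 and 92.8 at rank 719 in replicates 1 and 3. The summit was 8 bp upstream of Rab8 and 53 bp from the start of Usp32, a gene for a ubiquitin protease. Rab27 (FBgn0025382, chrX:1473884-1476974, minus strand), a Rab of secretory granules, had a peak at chrX:1476831-1477226 with a pooled signal of 86.5. It ranked 3008 in replicate 1 (signal 41.9) and 3451 in replicate 3 (38.9). Its summit lay 55 bp upstream of Rab27 and 34 bp from the start of mei-38, a spindle gene. Rab3, the Rab of synaptic vesicles, held no optimal peak and 1 weaker peak of signal 33.0, the lowest maximum among members with a peak.

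Rab23 (FBgn0037364, chr3R:5680054-5685434, minus strand), known for planar cell polarity in the fly wing, was bound through a peak that lies inside another gene. The peak at chr3R:5686275-5686670 lay 1039 bp upstream of Rab23 in an intron of plx, 618 bp from the start of plx, which encodes a protein with a Rab GAP domain. The pooled signal was 109, with 51.6 at rank 1937 and 51.3 at rank 2053 in replicates 1 and 3. RabX1 (FBgn0015372, chr2R:23519839-23523613, minus strand) had a peak at chr2R:23523601-23523996 with a pooled signal of 89.3. Replicate 3 gave 54.1 at rank 1889 and replicate 1 gave 32.0 at rank 5440, the widest gap in rank among the 11 optimal Rab peaks. The summit lay 186 bp upstream of RabX1 and 57 bp from the start of the divergent gene mi.

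**Figure D2:**
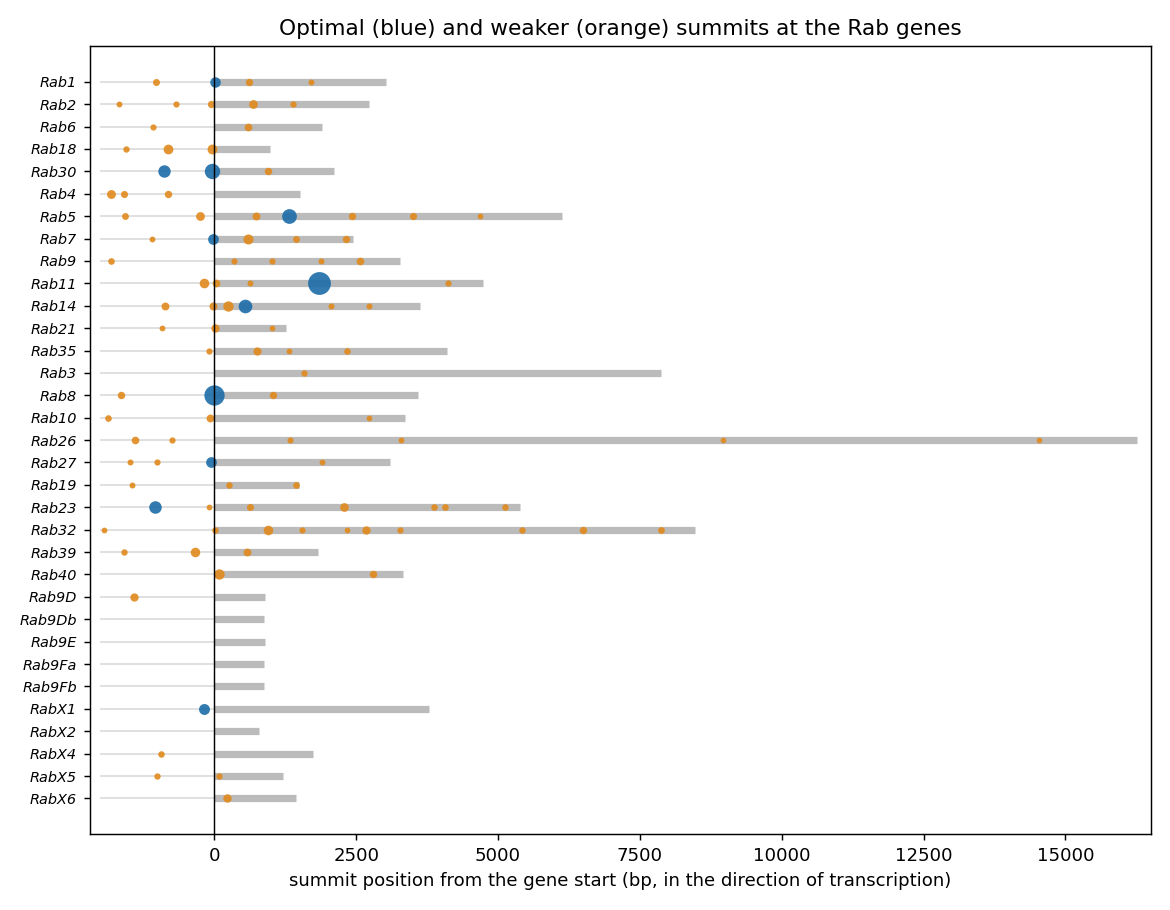
Summits of optimal (blue) and weaker (orange) pooled peaks along the 33 Rab genes, placed in bp from the gene start in the direction of transcription, with gene bodies as grey bars and larger dots for higher signals. Of the 11 optimal summits 6 lie within 500 bp of the gene start, and those of Rab5, Rab11 and Rab14 lie farther downstream inside the gene.

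All 11 optimal Rab peaks had their summit in a peak of each replicate's own list of 30000 peaks and background. Nearly all optimal peaks did so, since only 16 of the 2697 had no peak in a replicate's list. A stricter view used the 2697 highest peaks of each replicate, as many as the optimal list holds. By it 7 of the 11 Rab peaks (63.6%) were among the highest of both replicates, beside 69.5% of all optimal peaks. The other 4 were those with the lowest pooled signals. Rab1 and Rab7 fell outside in replicate 3, RabX1 in replicate 1 and Rab27 in both. Taking each replicate's highest 2697 peaks in place of the optimal list gave 9 bound Rab genes either way. Rab5, Rab8, Rab11, Rab14, Rab23 and Rab30 were bound by all 3 lists. Rab18 was bound by the highest peaks of each replicate but not by the optimal list, through peaks at different places. Depth is unknown here, because the lists hold no read counts.

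**Figure D3:**
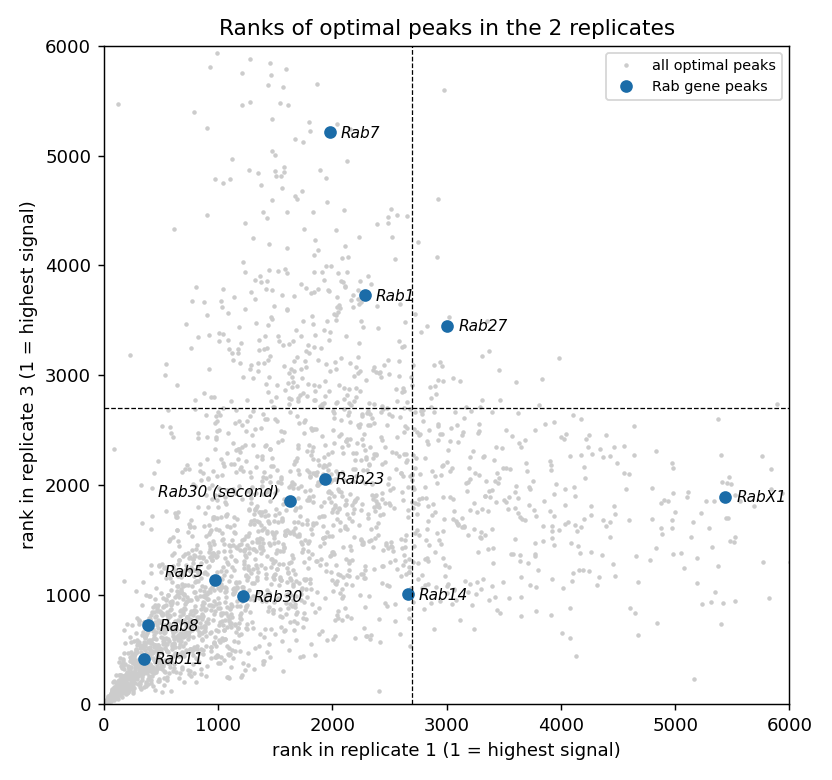
Rank of each optimal peak by signal in replicate 1 (horizontal axis) and replicate 3 (vertical axis), with 1 the highest, for all optimal peaks (grey) and the 11 Rab peaks (blue); the dashed lines mark rank 2697. The strongest Rab peaks lie near the lower left, while RabX1 and Rab7 lie far along 1 axis each; 92 optimal peaks past rank 6000 and 16 missing from a replicate's list are not drawn.

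The start regions of many Rab genes are crowded, but this is not particular to them. A gene start on the opposite strand lay within 1000 bp upstream for 18 of the 33 Rab genes (54.5%), beside 33.3% of all genes. In the related lists described below it did so for 19 of 32 other small GTPases and 21 of 32 regulators. Among effectors and tethers it did so for 19 of 38. Within the family, 16 of 23 conserved genes and 2 of 10 fly-specific or divergent genes had such a neighbour. Of the 18 Rab genes with such a neighbour, 5 (27.8%) had an optimal summit within 500 bp of their own start. This share was 21.5% for all genes with such a neighbour. Of the 15 Rab genes without one, 1 (6.67%) had such a summit, beside 7.34%. At the 5 divergent pairs with a summit, the gap between the paired starts ran from 61 to 243 bp. It was 61 bp for Rab8 and Usp32, 89 bp for Rab27 and mei-38, 92 bp for Rab7 and Epp and 243 bp for RabX1 and mi, with Rab30 and Caper in between. Peaks of this kind lie at both starts at once, and the lists do not tell which gene of a pair they belong to.

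The Dref site TATCGATA lay within 100 bp of the summit in 4 of the 11 optimal Rab peaks, the 4 shown at the start. Without replicate 1 the count was 2, since the peaks of Rab7 and Rab27 are not among the highest 2697 of replicate 3, and without replicate 3 it was 3. It was present in 4.93% of all 2697 optimal windows and in 0.667% of windows centred 1000 bp to either side. The site goes with promoters. Among all optimal summits within 500 bp of a gene start, 124 of 1221 (10.2%) had it, against 9 of 1476 (0.610%) farther away. Among the Rab peaks it was in 4 of the 6 near the member's start and in none of the other 5. The centre of the site lay 2.5 bp from the summit at Rab30, 5.5 bp at Rab7, 6.5 bp at Rab8 and 11.5 bp at Rab27. Over all 133 optimal peaks with the site the median distance was 47.5 bp, and 30 of them had it within 20 bp. At the 4 Rab promoters the summit therefore sat close to the site.

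**Figure D4:**
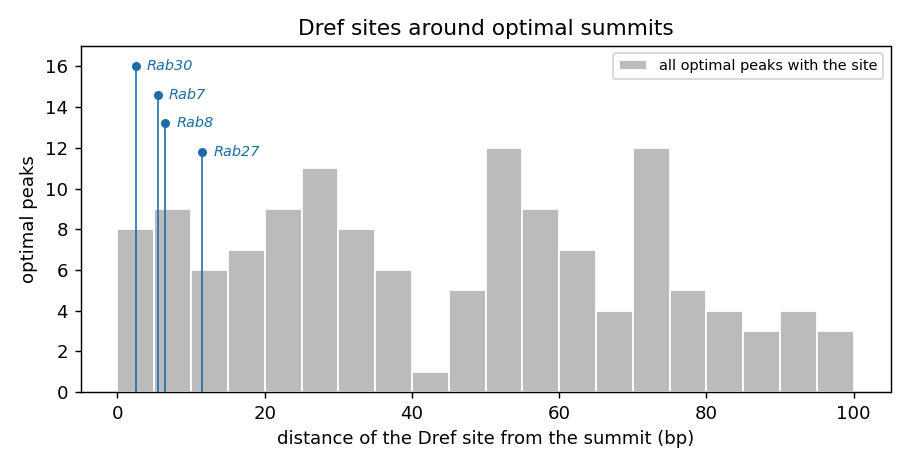
Distance in bp (horizontal axis) from the summit to the centre of the nearest Dref site for all 133 optimal peaks that hold it, as a count of peaks per bin (grey). The blue lines mark the 4 Rab peaks, between 2.5 and 11.5 bp, and their height has no meaning.

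The site was also present in some Rab promoters with no optimal summit within 500 bp of the start. In the window from 250 bp upstream to 50 bp downstream of the gene start, TATCGATA was present in 11 of 33 Rab genes (33.3%), beside 9.37% of all protein-coding genes. The 11 were Rab2, Rab6, Rab7, Rab8, Rab14, Rab19, Rab27, Rab30, Rab35, Rab40 and RabX6. Of these, 4 (36.4%) had an optimal summit within 500 bp of their start, beside 20.8% of all genes with the site in that window. Of the 22 Rab genes without it, 2 (9.09%) had such a summit, beside 11.2% of all genes without it. Dref itself was not assayed here.

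The word taken here for Repo, CAATTA, lay in 4 of the 11 Rab windows and in 17.4% of all optimal windows, against 16.1% of the flanking windows. It was 22 bp from the summit at Rab5 and farther away at RabX1, Rab7 and Rab27. The homeodomain core TAATTA was in 3 of the 11 (Rab8, Rab7 and Rab1), beside 12.1% of all windows, and at Rab7 a TAATTA and a CAATTA overlap. GAGAGAG was in 1 of the 11, at Rab14, beside 5.30%. None of the 11 held TAATGA (11.5% of all windows), GGTCACAC (3.11%), CACGTG (3.04%), AGATAAG (2.08%), CAGGTA (4.12%) or TGAGTCA (2.11%). All words were searched on both strands, and a match shows the letters in the window and not a bound factor. The Rab windows had a median GC content of 39.8%, beside 38.8% for all optimal windows.

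Weaker peaks come from a pooled list that holds background as well as peaks. The Rab genes held 92 of them, with signals from 25.3 to 83.0 and a median of 36.9, beside a median of 34.7 for all 27302 weaker peaks. Both replicates' lists held 43 of the 92 (46.7%), beside 41.3% of all weaker peaks, 45 were in the list of 1 replicate only and 4 in neither. In a coding exon of the Rab gene or of a neighbour lay 35 of the 92 summits (38.0%), beside 31.9% of all weaker summits and 1.11% of all optimal summits. Of the 18 weaker-only Rab genes, 12 (66.7%) had a weaker summit within 500 bp of their own start, beside 61.0% of all weaker-only genes.

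Rab40, which encodes a Rab with a SOCS box, came closest to the optimal list, with a weaker peak of signal 83.0 in its 5′ UTR, 74 bp from the start. It ranked 3191 in replicate 1 and 2825 in replicate 3. The members on either side of the threshold were therefore Rab1 at 84.4 and Rab40 at 83.0. Rab18, a Rab of lipid droplets and the endoplasmic reticulum, held a peak of signal 76.8 at 41 bp upstream (ranks 6115 and 2472) and another of 75.4 at 820 bp upstream, in an intron of RpL35 (ranks 2451 and 5142). Each replicate ranked a different peak of the pair high. Rab32, the pigment granule Rab encoded by the lightoid locus, held 10 weaker peaks, the most of any member, with a highest signal of 73.4 in a coding exon.

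Rab39 had a weaker peak of signal 72.3 at 339 bp upstream, in the 5′ UTR of Pdp (ranks 5704 and 2406). Rab4, of the fast recycling route, had its highest, 64.5, in a coding exon of POSH 1819 bp upstream (ranks 5752 and 5344). Rab2, of the Golgi, had its highest, 62.5, in its own coding exon, with ranks of 3455 and 14519 that set the replicates far apart. The other 12 weaker-only members were Rab3, Rab6, Rab9, Rab10, Rab19, Rab21, Rab26, Rab35, Rab9D, RabX4, RabX5 and RabX6. Their highest signals ran from 33.0 to 58.3.

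The members without a peak were RabX2, Rab9Db, Rab9E, Rab9Fa and Rab9Fb, all on chromosome X, and their close relative Rab9D held only 1 weaker peak, 1415 bp upstream of its start. Several of these genes are near-copies of each other. Rab9D, Rab9Db, Rab9E and Rab9Fa were between 96.0% and 99.0% identical over their gene sequences in pairwise alignments, with Rab9Db and Rab9Fa the closest pair. In these 4 genes between 84.9% and 95.7% of 36-base words occurred more than once in the genome. Over the interval searched for peaks, which adds 2 kb upstream, this share was lower, from 28.581% (Rab9D) to 36.001% (Rab9Fa). The share over the gene was 0 in every bound Rab gene. It was also 0 in every unbound conserved Rab gene but Rab10 (0.964%). Over the gene it was 1.30% in Rab9Fb and 14.8% in RabX2, and these 2 genes had no peak either. Reads from repeated sequence may be dropped or shared between copies, and how the authors treated them is not given in the sources used here. The part of repeated sequence in the lack of peaks was not tested.

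Genes that act on Rab proteins were read in the same way. Of 32 Rab regulators, 15 (46.9%) were bound, beside 19.7% of all genes, and 10 (31.2%) were bound within 500 bp of their start, beside 12.1%. The interval searched was longer for the regulators, with a median of 6988 bp beside 4166 bp for all genes, and its part in the count was not tested. The highest were spri (signal 229), a Rab5 exchange factor, in an intron 38217 bp from its start, Evi5 (211), a Rab11 GAP, with 3 optimal peaks, and Ccz1 (145), with its summit 2 bp upstream of the start. Next came sky (136), a Rab35 GAP with 4 optimal peaks, gry (134), a subunit of the TRAPP tethering and exchange complex, and RabGGTb (132), a subunit of the enzyme that attaches lipid anchors to Rab proteins. Mon1, which forms the Rab7 exchange factor with Ccz1, was also bound, at 129 and 15 bp upstream of its start; it falls outside the naming rule and was chosen after its values were seen. The regulator plx (109) was bound through the peak it shares with Rab23.

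The regulators named after Rab3 differed among themselves. Rab3GAP1 was bound, with a peak at chr2L:1611143-1611538 of signal 176, 184 bp upstream of its start and 69 bp from that of CG14352. Replicate 1 gave 65.6 at rank 1151 and replicate 3 gave 113 at rank 488. Rab3-GAP and Rab3-GEF held no optimal peak and 2 weaker peaks each. Rab3GAP1 was not on the list of 32 regulators.

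Of 38 effectors and tethers, 10 (26.3%) were bound, beside 19.7% of all genes. With each summit given only to the nearest gene start, 5 were bound (13.2%), beside 15.002% of all genes. Rbsn-5 (signal 277), a Rab5 effector of early endosomes, ranked 231 and 274 in the replicates. The next were didum (224), a myosin V motor, BicD (162), a dynein adaptor that binds Rab6, Rip11 (139), a Rab11 effector, Golgin245 (116) and Sec8 (113), a subunit of the exocyst. Of 32 other small GTPases, 11 (34.4%) were bound, beside 19.7% of all genes. With the nearest gene start 5 (15.6%) were bound, beside 15.002% of all genes, and the Rab genes had 7 (21.2%). Mtl (369), of the Rac group, had 2 optimal peaks and a higher signal than any Rab gene. It was followed by Arl6 (199), Ras85D (167), RhoBTB (147), Rsbp15 (144) and Rho1 (142). Rsbp15 has a name that does not mark it as a small GTPase, and without it 10 of the remaining genes were bound. The differences between these lists were not tested.

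**Figure D5:**
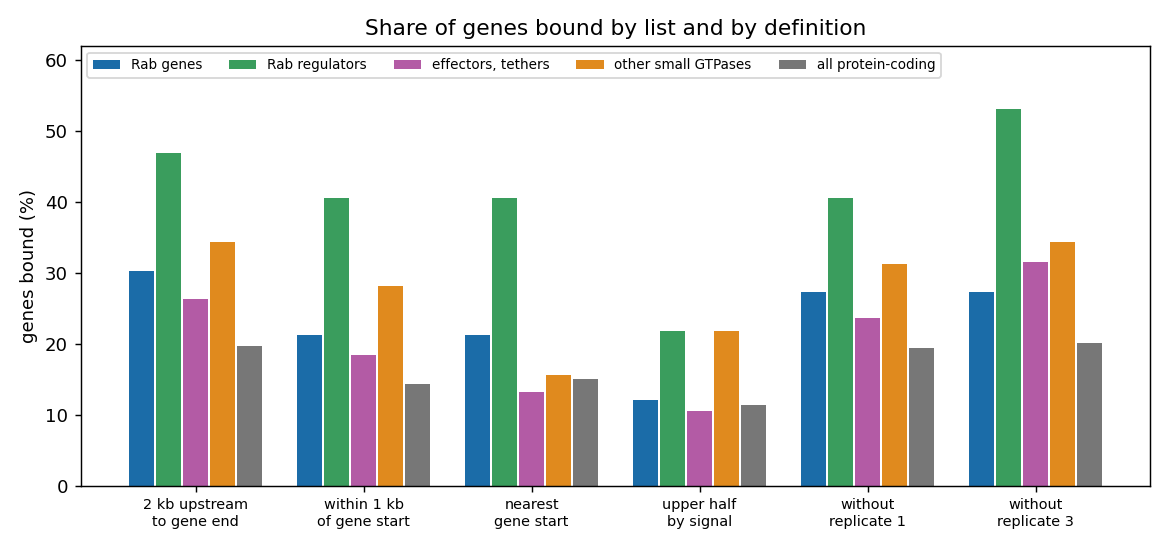
Share of genes bound in percent (vertical axis, from 0) for Rab genes, the 3 related lists and all protein-coding genes, under 6 ways of calling a gene bound (horizontal axis). The Rab share was 30.3% beside 19.7% under the rule used in the text, 27.3% beside 19.5% without replicate 1, 27.3% beside 20.1% without replicate 3, and 12.1% beside 11.3% with the 1348 optimal peaks of highest signal.

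The Rab share depended on how strong a peak had to be. With the 1348 optimal peaks of highest signal, 4 Rab genes (12.1%) were bound, beside 11.3% of all genes, and these were Rab5, Rab8, Rab11 and Rab30. With each summit given only to the nearest gene start, 7 were bound (21.2%), beside 2092 of the 13945 protein-coding genes; Rab23, Rab27 and RabX1 were lost, since their summits lay closer to plx, mei-38 and mi.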

How the data were processed

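Peaks of Repo-GFP ChIP-seq on build dm6 came from 4 deposited lists: 1 per replicate, 1 pooled, each of 30000 peaks and background, and the optimal list after IDR. The signal of a peak is the authors' value; no source used here gives its scale, the aligner, the peak caller, the IDR threshold or the read depth. Per the labels, the embryos came from 1 transgenic line; the description says that an anti-GFP antibody was used, while the antibody field names only repo. Positions were read against Ensembl release 115 (BDGP6.54) and the RefSeq dm6 genome with Python 3.11.15, pandas 2.3.3, NumPy 2.4.6 and Biopython 1.88. A pooled peak counted as weaker when its summit fell outside every optimal peak. A replicate's peak was matched when it held the pooled summit. Words were searched on both strands within 100 bp of summits; windows at 1000 bp to either side served as flanks. No test was made: there is 1 group of 2 samples, and peaks are not replicates.

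The members and lists were chosen with earlier results of these data known. Every bound member is described, then the 6 weaker-only members of highest signal, up to 6 bound genes per related list with any that shares a Rab peak, and genes that start within 500 bp of an optimal Rab summit. Rab3GAP1 fits the letter of the member rule but was described beside the regulators after the symbols were read. It is not on the list of 32 regulators, so it counts neither there nor among the 33 members. Of 102 listed genes, 98 matched by symbol and 4 by an older symbol. The search of promoter windows, repeated words, gene identity and divergent starts was added after seeing the data. The search for word matches was tested on simulated data.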

Additional observations from a re-analysis of the deposited data

How the results depend on the processing

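Of 48 alternatives to the counts and medians given above, 37 left a count within 1.5 times of its value; the others follow, with both medians, which moved by more than the replicate spread. With the 1348 optimal peaks of highest signal, 4 Rab genes, 7 regulators, 4 effectors and 7 other small GTPases were bound. At their start 2 Rab genes were bound. These counts fell since fewer peaks were used. The median signal was 173, a rise set by the cut itself, which removed the optimal peaks of lower signal. Giving each summit to the nearest gene start left 5 effectors and 5 other small GTPases. Within 1 kb of the gene start, 7 Rab genes remained bound and their median signal was 89.3, since the summits at Rab5, Rab11 and Rab23 lay farther away. Among the 1348 highest peaks of both replicates were 4 Rab peaks.

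With 1 replicate's highest peaks in place of the optimal list, 9 Rab genes were bound in each case, 13 to 17 regulators, 9 to 12 effectors, 10 to 11 other small GTPases and 5 to 6 Rab genes at their start. Without replicate 1, Rab1, Rab7 and Rab27 were lost and Rab18 and Rab39 gained; without replicate 3, Rab27 and RabX1 were lost and Rab18 gained. The Dref site was then in 2 to 3 Rab windows in place of 4, the lower value without replicate 1. With Rab3GAP1, Rab3-GAP and Rab3-GEF counted as members, 11 of 36 were bound, and without the Rab9 copies on X, 10 of 28. No paired analysis was possible because the series holds a single group. Read depth is unknown, so absence of an optimal peak is absence from these lists only.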
